A study of Cavia porcellus with 24 samples.

Results

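Dynll1 (ENSCPOG00000036786) encodes a light chain of cytoplasmic dynein, and its messenger RNA was followed through the carotid endothelium of 24 guinea pigs, animal by animal. It is 1 of the 18149 genes in the expression table. The gene was chosen on the study's list for PC-C vs PC-H, so its difference between those animals is what selected it and is described here without a test, as is every other comparison that uses PC-C or PC-H. The remaining 6 groups took no part in that choice, and comparisons among them were tested.

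Cytoplasmic dynein is the motor that carries vesicles, organelles and other cargo along microtubules towards the centrosome. DYNLL1 sits as a dimer at the base of the motor and also binds many proteins that have nothing to do with transport, where it holds short stretches of its partners together. In endothelium, dynein and dynactin, the complex that activates it, take part in positioning the centrosome and in moving endosomes.

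The animals were Hartley guinea pigs of 2 generations, killed at 20 weeks of age. The letters PC and PR give the food of the F0 dam, which received 100% of the usual ad libitum intake (PC) or was restricted to 70% of it from before mating (PR), with the restricted ration raised from about mid gestation to the end of lactation. The last letter gives the diet of the animal itself, which was control chow (C) or a high fat chow with added cholesterol and fructose (H) for 12 weeks from 8 weeks of age. PC-C, PC-H, PR-C and PR-H were the F1 groups, and the groups with a further letter were F2, PC-C-C and PR-C-C on control chow and PC-C-H and PR-C-H on high fat chow, whose F1 mothers all ate control chow. Each group held 3 animals, with 1 library for each.

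RNA was taken by flushing a rinsed carotid artery with TRIzol, so it represents the inner lining with whatever other cells lysed, and a lower share of a cell type cannot be told apart from less of a transcript in each cell. None of the 6 endothelial, 4 smooth muscle or 4 fibroblast markers looked for is paired with an identifier in the sources used here. The labelled cell type was therefore not checked here. The study itself reports, from its own test of vascular markers, that the samples were enriched in endothelial RNA. The labels name no litter for an animal. Per the study's methods, diets were given out with the aim of keeping siblings apart. The study lists fewer F1 mothers in the PC arm than PC-C-C has animals, so some animals of that group shared a mother. PC-C-H animal 51 is missing from the study's animal list, and 1 library of that group was dropped by the study for poor quality. It was left out of the tests, which rest on 23 animals. For PC-H animal 34 the same list notes a mixture of the diets for part of the feeding period.

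Values are normalized read counts, which are reads divided by 1 size factor for each library. Dynll1 was an abundant transcript, with 7274 to 27583 reads in libraries of 14061522 to 31148123 reads. Counting error was therefore small, with an SD of 0.0087 to 0.017 on the log2 scale, against an SD of 0.24 between animals of the same group. The spread between animals was larger than this for 66.1% of the 13224 genes tested, whose median SD was 0.30. Reads of near-identical copies, such as the paralog Dynll2 or pseudogenes, may be included or split off, since the counting program is not given in the sources used here.

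Dynll1 was highest in the 3 F1 animals born to fully fed dams and raised on high fat chow. In PC-H the normalized count was 20409 in animal 11, 18416 in animal 21 and 24933 in animal 34, a mean of 21253 ± 3339 (SD, n = 3). In PC-C it was 10343 in animal 13, 11389 in animal 27 and 9364 in animal 28, a mean of 10365 ± 1013 (SD, n = 3). The groups did not overlap, a property whose share over all genes was not computed for this pair. The difference was 1.03 in log2(normalized count + 1), or 2.04-fold. Leaving out animals in turn gave 0.91 to 1.13, the lowest without animal 34. Animal 34 was female and the others in the pair of groups were male, and with sex as a covariate the difference was 1.06.

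In the F1 offspring of restricted dams the groups did overlap. PR-C had 11864 in animal 17, 16300 in animal 25 and 9022 in animal 36, the widest spread of the 8 groups (12395 ± 3668, SD, n = 3). PR-H had 16186 in animal 16, 12713 in animal 23 and 18077 in animal 31 (15658 ± 2721, SD, n = 3). PR-H was thus above PR-C on average, while PR-C animal 25 lay above 2 of the 3 PR-H animals.

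The F2 animals spanned a narrower range, from 8149 to 14472. PC-C-C had 10179 in animal 52, 9587 in animal 54 and 8149 in animal 55 (9305 ± 1044, SD, n = 3), and PC-C-H had 9306 in animal 50 and 11006 in animal 53 (10156 ± 1201, SD, n = 2). Animal 51, outside the tests, had 10677, between the other 2 animals of its group. PR-C-C had 13457 in animal 41, 12598 in animal 47 and 13761 in animal 58, the tightest group (13272 ± 603, SD, n = 3), and PR-C-H had 11330 in animal 43, 10346 in animal 46 and 14472 in animal 59 (12049 ± 2155, SD, n = 3). Animals 55, 50, 47 and 46, the lowest tested in their F2 groups, were also the females among those tested. Of the F1 females, PR-C animal 17 was in the middle of its group and PC-H animal 34 was the highest of all. The main tests had no term for sex. With sex as a covariate Dynll1 was called in none of the tested comparisons either.

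**Figure D1:**
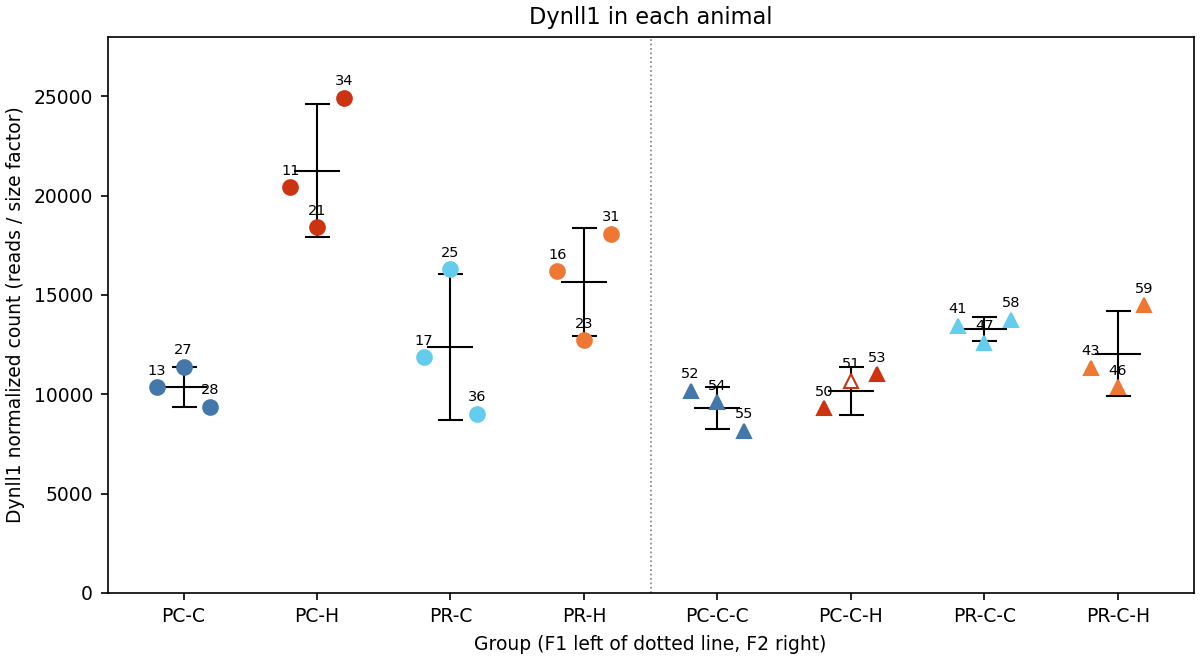
Normalized count of Dynll1 (y axis, reads divided by the size factor, from 0) in every animal, by group (x axis), with circles for F1, triangles for F2, animal numbers above the points, and bars for the mean and SD; the open triangle is animal 51, which is in neither. The 3 PC-H animals, at 18416 to 24933, lie above all other animals, of which the highest is PR-H animal 31 at 18077.

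Ordered by mean, the groups ran from PC-H through PR-H, PR-C-C, PR-C, PR-C-H, PC-C and PC-C-H to PC-C-C. Of the neighbours in this order, PC-H and PR-H did not overlap, though PC-H animal 21 at 18416 and PR-H animal 31 at 18077 were close. Every other pair of neighbours overlapped, while groups further apart in the order did not always: PR-C-C, from 12598, and PR-H, from 12713, lay wholly above PC-C, PC-C-H and PC-C-C, whose highest animal was at 11389. PR-C-C stood wholly above PC-C-C for 6.11% of the genes tested, and for the other pairs named here the share over all genes was not computed. The 8 animals of PC-C, PC-C-C and PC-C-H ranged from 8149 to 11389, and 9 of the 12 animals of the PR groups were above 11389. This last count leaves out PC-H, whose lowest animal, at 18416, was above every PR animal, while it keeps PR-H. It also uses PC-C and was noticed in the values, so it is a description. The share of all genes with such a count was not computed.

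The first question put to the groups outside the choice was whether high fat chow went with more Dynll1 there too. The difference did not pass the test in any of the 3 remaining pairs. PR-H exceeded PR-C by 0.36 ± 0.19 (log2, SE, 1.29-fold, 95% interval 0.98 to 1.69, adjusted p = 1, limma), where 0.0227% of the genes tested were called at an adjusted p under 0.05. PC-C-H exceeded PC-C-C by 0.13 ± 0.21 (log2, SE, 1.09-fold, 0.81 to 1.48, adjusted p = 0.968, limma, 0.00756% of genes called). PR-C-H was below PR-C-C, by a log2 difference of -0.15 ± 0.19 (SE, 0.90-fold, 0.69 to 1.18, adjusted p = 0.765, limma, 2.61% of genes called). With animals left out in turn, in limma and DESeq2, PR-H minus PR-C ranged from 0.15 (without PR-C animal 36) to 0.59 (without PR-C animal 25), and PR-C-H minus PR-C-C from -0.29 (without PR-C-H animal 59) to -0.04 (without PR-C-H animal 46).

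Averaged over these 3 pairs, the difference between diets was 0.11 ± 0.11 (log2, SE), or 1.08-fold, with a 95% interval from 0.92 to 1.27 and an adjusted p of 0.662 in limma, where 2.19% of genes were called. A two-sided exact permutation test of diet labels within the 3 pairs, over all 4000 relabellings, gave p = 0.386. Dynll1 was higher on high fat chow on average in 2 of the 3 pairs and lower in the other, and all 3 pairs overlapped.

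The diet differences were also set against each other. Between the F2 arms they differed by -0.28 ± 0.28 (log2, SE, 95% interval -0.87 to 0.31, adjusted p = 1.00, limma), with 0% of genes called. In that interaction limma called 0 genes, 349 had an unadjusted p under 0.05, and DESeq2 called 23 and edgeR 0. Between the generations of the PR arm the diet difference was lower in F2 by -0.52 ± 0.27 (log2, SE, -1.07 to 0.04, unadjusted p = 0.0654, adjusted p = 0.562, limma), with 0.0756% of genes called. The same contrast between the F1 arms, PR against PC, was -0.66, which rests on the animals that chose the gene and has no test.

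**Figure D2:**
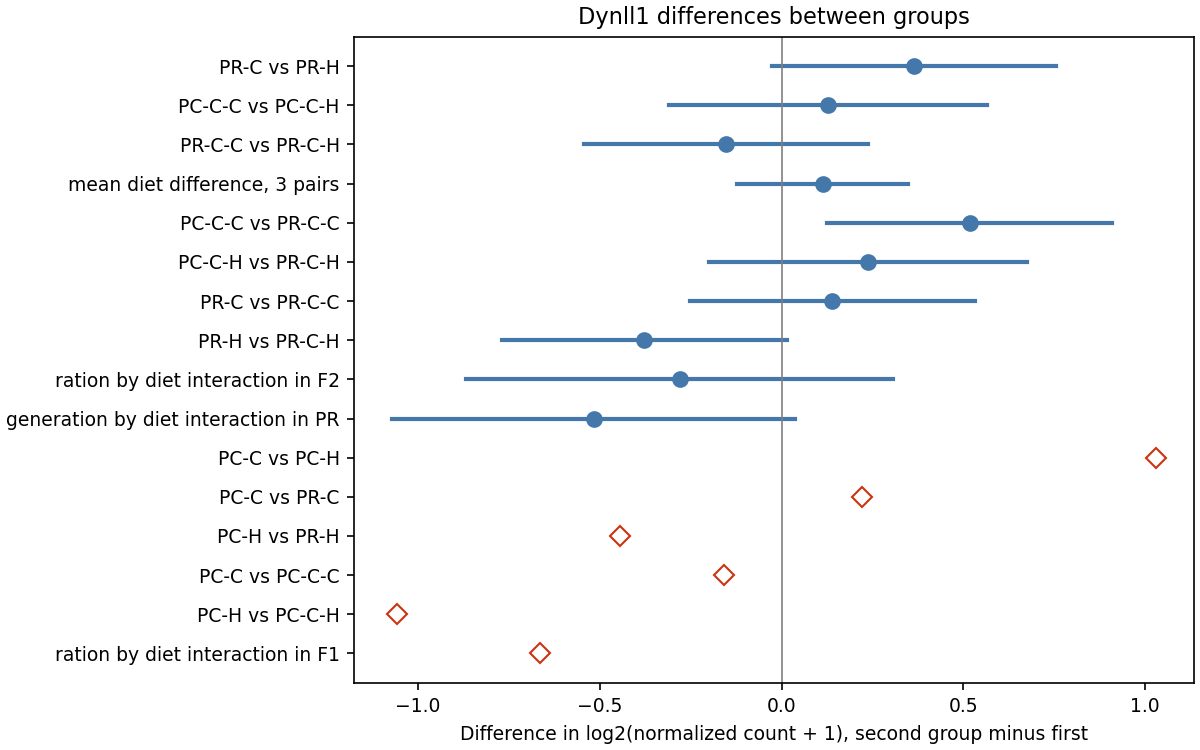
Differences of Dynll1 between groups (x axis, log2(normalized count + 1), second group minus first; for an interaction, a difference between differences), with filled circles and lines for the 10 tested contrasts and their 95% intervals, and open diamonds for the 6 that use PC-C or PC-H, shown without an interval. Of the tested contrasts, PC-C-C vs PR-C-C, at 0.52, is the one whose interval, 0.13 to 0.91, lies clear of 0 before adjustment over genes.

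The second question was whether Dynll1 differed by F0 ration in the F2 animals. On control chow the 3 PR-C-C animals, at 12598 to 13761, were all above the 3 PC-C-C animals, at 8149 to 10179. The difference was 0.52 ± 0.19 (log2, SE), or 1.43-fold with a 95% interval from 1.09 to 1.88. It had an unadjusted p of 0.0121 and an adjusted p of 0.982 in limma, and so was not called, and 0% of genes were. In that comparison limma called 0 genes, 615 had an unadjusted p under 0.05, and DESeq2 called 21 and edgeR 0. PR-C-C animals stood wholly above PC-C-C animals for 6.11% of the genes tested. An exact permutation test of 3 against 3 animals cannot go below p = 0.1, the value it gave. The ration was given to the F0 dams, and the labels name no dam for an animal. Here and in the F2 comparison on high fat chow below, the SE, interval and p rest on the spread between animals. They do not measure the spread between dams.

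The libraries fall into a division of 6 and 18 by the genes that differed between PR-C and PR-C-C, and this division runs through the PC-C-C group. The 6 are the 3 PR-C-C animals, PC-C-C animals 54 and 55 and PC-C-H animal 51. Dynll1 ranged from 8149 to 13761 in the 6 and from 9022 to 24933 in the 18. PR-C-C lies wholly in the 6 and PR-C and PR-C-H in the 18, and the split of PR-C from PR-C-C follows from how the division was made. With a term for the division, PR-C-C vs PR-C-H was -0.36 for Dynll1 (adjusted p = 0.999, limma), and limma called 0 genes there in place of 345, with 551 at an unadjusted p under 0.05. Within the 6, PC-C-C animals 54 and 55 had 9587 and 8149, and the 3 PR-C-C animals had 12598 to 13761. With animal 52 left out, the log2 difference between these F2 arms on control chow was 0.59. The division was drawn from these same data and leaves few animals to compare, so its part in that difference was not tested. The summed count of 4 blood cell markers, named further on, was 41.7 to 67.3 in PC-C-C and 17.9 to 31.9 in PR-C-C, and its part in the Dynll1 difference was not tested.

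On high fat chow the F2 arms overlapped. PR-C-H exceeded PC-C-H by 0.24 ± 0.21 (log2, SE, 1.18-fold, 95% interval 0.87 to 1.60, adjusted p = 1, limma), with 0% of genes called. For that pair limma called 0 genes, 289 had an unadjusted p under 0.05, and DESeq2 called 16 and edgeR 0. In F1, PR-C was above PC-C by 0.22 (0.0019 to 0.43 with animals left out in turn) and PR-H was below PC-H by a log2 difference of -0.44, values that use the choosing animals and carry no test.

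Across generations of the PR arm Dynll1 differed by less than the test could call. PR-C-C was above PR-C by 0.14 ± 0.19 (log2, SE, 1.10-fold, 95% interval 0.84 to 1.44, adjusted p = 0.772, limma, 2.28% of genes called). Without PR-C animal 36, the lowest of its group, this difference was -0.07. PR-C-H was below PR-H by a log2 difference of -0.38 ± 0.19 (SE, 0.77-fold, 0.59 to 1.01, unadjusted p = 0.0578, adjusted p = 1, limma, 0% of genes called). Between those high fat groups limma called 0 genes, 272 had an unadjusted p under 0.05, and DESeq2 called 9 and edgeR 0. In the PC arm, as a description, PC-C-C differed from PC-C by -0.16 and PC-C-H from PC-H by -1.06, the latter without overlap (share over all genes not computed).

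The rest of the dynein machinery could be read only in part, because names come from the study's list for PC-C vs PC-H. Of 28 dynein, dynactin and adaptor genes 2 are named, and of 14 binding partners of the light chain none is. Dync1li1, a light intermediate chain that links the motor to its cargo adaptors, was 1588 in animal 13, 1917 in animal 27 and 1544 in animal 28 of PC-C, against 2182 in animal 11, 2711 in animal 21 and 2538 in animal 34 of PC-H. Fhip1b, part of the complex that couples dynein to endosomes, ran the other way, at 1084 to 1157 in PC-C and 652 to 813 in PC-H. Their log2 differences were 0.56 and -0.59, and both genes were chosen on these animals.

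Neither gene was called in any of the 10 tested comparisons, by limma, which called at most 2.61% of genes in them, or by DESeq2, at most 3.77%. Over the 17 animals outside PC-C and PC-H, Dync1li1 had a Pearson r of -0.04 with Dynll1 (Spearman coefficient 0.01), and Fhip1b had an r of -0.56 (Spearman -0.47). Dync1li1 ranked 6998 of the 13223 genes by this r, near the middle.

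Of the 7 genes of microtubules and the centrosome, 5 were higher and 2 lower in PC-H than in PC-C, with a median log2 difference of 0.93 against -0.01 over all genes tested. These 7 genes were taken from the study's list for those animals, so the count is no independent evidence. Tuba4a, an alpha tubulin, was 33.8 to 58.3 in PC-C and 208 to 353 in PC-H, and Dcx, a microtubule-binding protein best known from migrating neurons, was 1.93 to 5.13 and 27.2 to 37.4. Outside this pair Tuba4a ranged from 35.5 in PR-C-C to 446 in PC-C-C. Group means of Dcx there were 20.4 (PR-C-H) to 36.1 (PR-C-C), so PC-C was its low group. Tuba8, another alpha tubulin, differed by 1.20 in log2, Stmn3, which destabilizes microtubules, by 0.93, and Ssna1, a microtubule-binding protein of centrosomes and cilia, by 0.60. Cntrl, the centrosomal protein centriolin, differed by -0.67 and Tmem231, of the ciliary transition zone, by -0.69. None of the 7 was called by limma or DESeq2 in the 10 tested comparisons, in which limma called at most 2.61% of genes and DESeq2 at most 3.77%.

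Of the 6 actin genes, from the same list and with the same limit, 4 were higher and 2 lower in PC-H, with a median log2 difference of 0.40. Arpc4 and Arpc5l, subunits of the Arp2/3 complex that nucleates branched actin, differed by 0.41 and 0.45, Cnn3, a calponin, by 0.39 and Pdlim2, a PDZ and LIM protein, by 1.11. Limk2, the kinase that inactivates cofilin, differed by -0.63 and Srgap2, which bends membranes, by -0.78. None was called by limma in the tested comparisons, where at most 2.61% of genes were.

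The closest was Arpc5l between PR-C-C and PR-C-H, at 4826 in animal 41, 4367 in animal 47 and 5227 in animal 58 against 3191 in animal 43, 3604 in animal 46 and 3962 in animal 59. The groups did not overlap, which held in this direction for 13.6% of the genes tested, and the log2 difference was -0.42 ± 0.13 (SE, adjusted p = 0.0778 in limma and 0.0255 in DESeq2, which called 3.77% of genes there). Arpc5l was thus lower in PR-C-H than in PR-C-C, the opposite of its direction in the choosing F1 animals. PR-C-C lies wholly on the smaller side of the library division and PR-C-H on the larger. Diet and division therefore cannot be told apart in this pair.

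**Figure D3:**
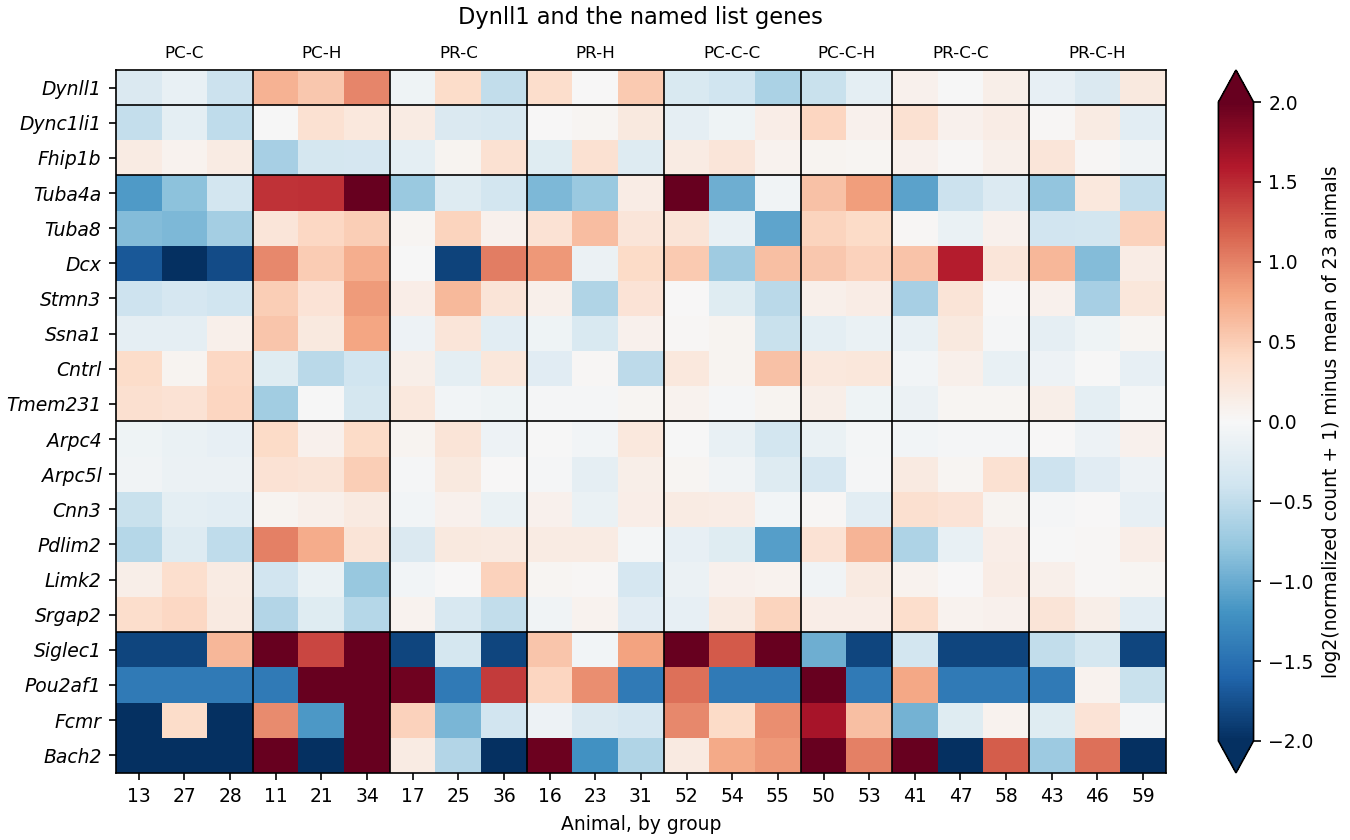
Dynll1 and the named genes of the dynein, microtubule and centrosome, actin and blood lists (rows, lists separated by lines) in 23 animals (columns, by group), coloured by log2(normalized count + 1) minus the mean of the 23 animals, with colours held at -2 and 2. Dynll1 is 0.54 to 0.98 above the mean in the 3 PC-H animals and 0.52 above it in PR-H animal 31. The blood markers in the bottom 4 rows are strongest together in PC-H animal 34.

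Markers of blood cells moved with Dynll1 in this pair of F1 groups. Of 7 blood markers 4 are named: Siglec1, of macrophages, and Pou2af1, Fcmr and Bach2, of lymphocytes. Their summed normalized count was 1.03 to 28.0 in PC-C and 27.2 to 730 in PC-H, where animal 34 held the 730, and 14.4 to 98.4 in the other 6 groups. Pou2af1 and Bach2 were at 0 in all 3 PC-C animals. In PC-H, Pou2af1 was at 0 in animal 11 and Bach2 in animal 21. These 4 genes were chosen on the same contrast.

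The part of blood cells in the Dynll1 difference was not tested. Without animal 34, which held the highest marker sum, the log2 difference in Dynll1 was 0.91. Over the 17 animals outside PC-C and PC-H, r with Dynll1 was -0.15 for Siglec1, -0.25 for Pou2af1 and -0.64 for Fcmr, and with group means removed it was 0.20, -0.45 and -0.33. Over all 23 animals it was 0.46, 0.35 and 0.25. Bach2, with a mean under 10, was not among the genes tested.

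To see which genes varied most like Dynll1, Pearson r of log2(normalized count + 1) was computed over the 17 animals outside PC-C and PC-H. All of these genes share libraries and size factors with Dynll1, the ones shown are extremes by construction, and no p is given. For RNA integrity the study's methods state only a lower bound met by all samples. Its part in these values of r was not tested. Over 13223 genes the median r was -0.02, with 95% of genes between -0.57 and 0.66. The 140 genes with a name had a median of 0.02 and a wider range, from -0.64 to 0.82 for the same share of them. All names come from the study's list for PC-C vs PC-H, so the named genes, like Dynll1, were chosen on those animals.

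The highest of the 13223 were ENSCPOG00000003107, with r = 0.92 (Spearman coefficient 0.91), and ENSCPOG00000003846, with r = 0.90 (Spearman 0.86), neither of which is paired with a name here. Among named genes the highest was Manf, a secreted protein of the endoplasmic reticulum that is induced by misfolded proteins, at r = 0.87 (Spearman 0.86), ranked 6 among all genes. Ube2a, a ubiquitin-conjugating enzyme, followed at r = 0.87 (Spearman 0.94). Then came Arpc4 of the Arp2/3 complex at 0.82 (Spearman 0.76) and 3 genes of mitochondria. These were Hspe1, the mitochondrial co-chaperonin, at 0.82 (Spearman 0.80), Vdac2, a channel of the outer membrane, at 0.81 (Spearman 0.79), and Ndufv2, a subunit of complex I, at 0.81 (Spearman 0.76).

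The lowest r of all 13223 genes belonged to Cntrl, at -0.88 (Spearman -0.88). Cntrl was 1127 to 1641 in PC-C-C and 981 to 1175 in PR-C-C. The next named genes from the bottom were Cdh24, a cadherin of cell junctions, at -0.70 (Spearman -0.65), and Zfyve26, an endosome and autophagy protein, at -0.69 (Spearman -0.60).

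Values of r over other sets that hold the same animals follow as a description, since the genes were picked as extremes in them and lend no independent support. With group means removed, r over the 17 animals was 0.79 for Manf, 0.88 for Ube2a, 0.88 for Arpc4, 0.85 for Hspe1, 0.68 for Vdac2, 0.88 for Ndufv2 and -0.79 for Cntrl. Leaving out PR-H animal 31 and PC-C-C animal 55, which were farthest from the median of Dynll1, gave 0.80 for Manf, 0.85 for Ube2a, 0.72 for Arpc4 and -0.82 for Cntrl. Among the 12 of these animals on the larger side of the library division, r was 0.85 for Manf, 0.93 for Ube2a, 0.91 for Ndufv2 and -0.89 for Cntrl. Over all 23 animals, the choosing groups included, r was 0.86 for Manf, 0.81 for Ube2a, 0.87 for Ndufv2 and -0.88 for Cntrl.

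**Figure D4:**
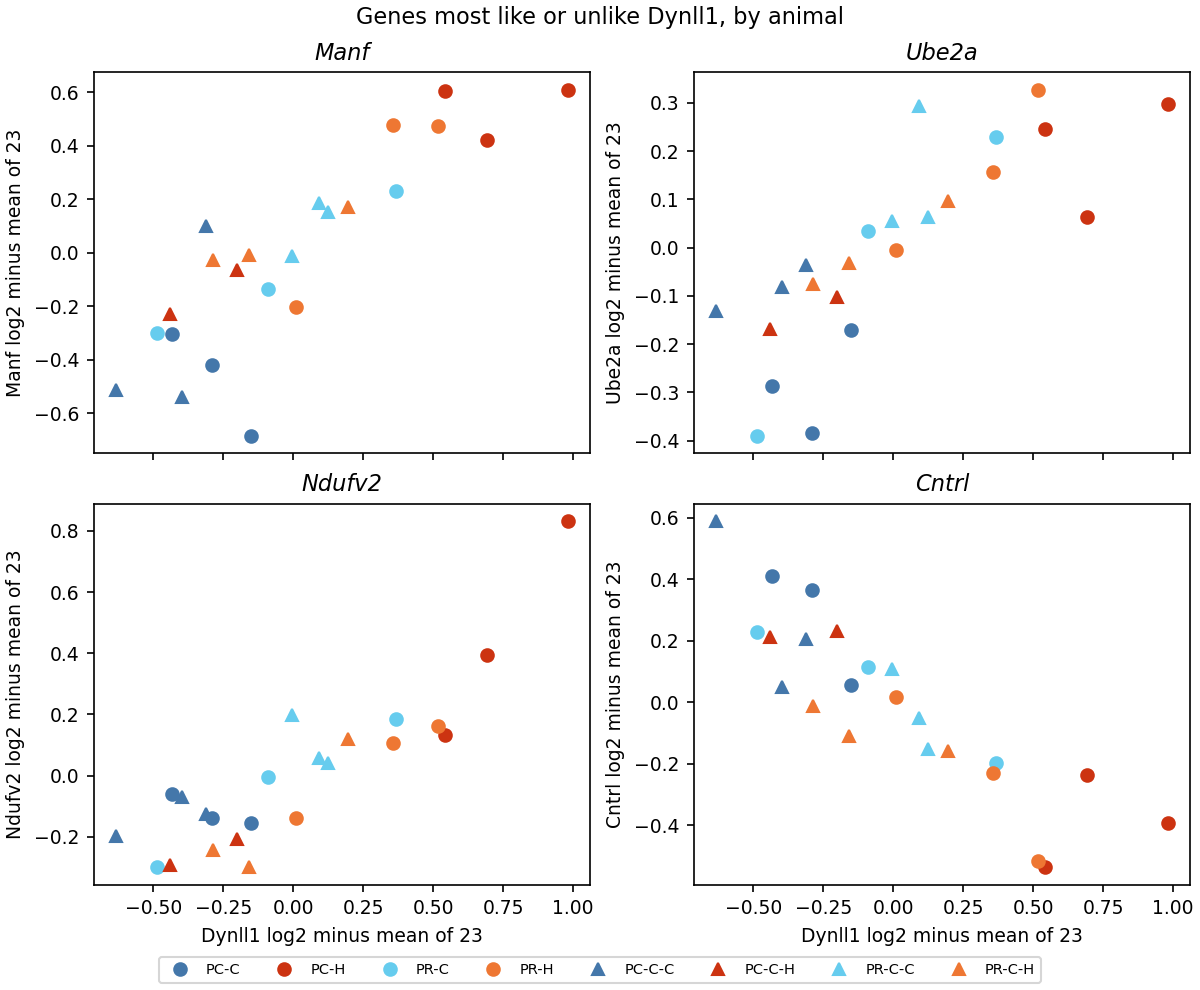
Manf, Ube2a, Ndufv2 and Cntrl (y axes) against Dynll1 (x axes), each as log2(normalized count + 1) minus the mean of 23 animals, 1 point for each animal, with circles for F1 and triangles for F2. Manf, Ube2a and Ndufv2 rise with Dynll1 across groups (r = 0.87, 0.87 and 0.81 over the 17 animals outside PC-C and PC-H) and Cntrl falls (r = -0.88).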

How the data were processed

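Messenger RNA of 24 carotid endothelial samples was measured, 1 library for each animal. Per the labels and the paper's methods, the authors used FastQC, Trimmomatic, STAR and DESeq2; versions, genome build, annotation, strand setting and counting program are not given in the sources used here. The deposited signal values are the authors' read counts over DESeq2 size factors. As tested on the values, 100% are whole reads at a relative tolerance of 1e-06, so reads were recovered.

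The main test was limma 3.58.1 with an intensity trend on log2(normalized count + 1), on 13224 genes whose mean reached 10, all 8 groups in 1 model, with Benjamini-Hochberg adjustment over these genes and a threshold of 0.05. DESeq2 1.42.0, the authors' tool, and edgeR 4.0.16 on recovered reads were alternatives, as were other scalings, pseudocounts, filters, sample sets, covariates and each animal left out. Scripts were tested on simulated data. Diets were assigned with the aim of separating siblings, per the methods, but no litter is given for an animal. The tests treated animals as independent, although some animals of PC-C-C shared a mother and others may have. Their p-values rest on the spread between these animals, not on that between litters or F0 dams. The counting SD covers counting error only, since no molecular identifiers are stated.

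Names for 147 identifiers came from a readable part of the study's list for PC-C vs PC-H; the RefSeq table matched 0 identifiers. No sequence or position is given. The gene, its lists and its tests were chosen with earlier results of these data known. Genes named are Dynll1, the list genes, and by r over 17 animals the 6 highest and 3 lowest with a name and the 2 highest without; Arpc5l was singled out after its values were seen.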

Additional observations from a re-analysis of the deposited data

How the results depend on the processing

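Dynll1 was called in none of the 10 tested comparisons under any alternative run, and the lowest adjusted p was 0.103, for the generation by diet interaction in PR with array weights in limma. Under alternatives 377 values of Dynll1 kept direction and side of the threshold (for comparisons without a test, moved by less than the SD between animals) and 4 changed sign, the cause of which was not tested. With a term for the division of the libraries, the mean diet difference was -0.000373 and PC-C-C vs PC-C-H was -0.0083; that term rests on PC-C-C animal 52 against 54 and 55, since each PR group in it lies on 1 side. PR-C vs PR-C-C ranged from -0.09 to 0.36 with animals left out, in limma and in DESeq2 (the latter chosen after seeing the data), and was -0.0683 in limma and -0.0869 in DESeq2 without PR-C animal 36. With animals left out in the same way, PC-C-C vs PC-C-H ranged from 0.0023 to 0.25, PC-C-H vs PR-C-H from 0.09 to 0.37, and the mean diet difference from 0.04 to 0.19.

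Counts of genes called depended on the tool: limma and DESeq2 called 3 and 15 genes in PR-C vs PR-H, 1 and 48 between PC-C-C and PC-C-H, 345 and 682 between PR-C-C and PR-C-H, 290 and 664 for the mean diet difference, 302 and 661 in PR-C vs PR-C-C, and 10 and 160 for the generation by diet interaction in PR. No analysis paired by litter was possible because no litter is given for an animal. The number of animals, 3 a group and 2 for PC-C-H, limits the precision more than depth does.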
